A study of Mus musculus with 6 samples.

Results

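The genes described here are Gabarap, its ATG8 relatives Gabarapl1, Gabarapl2, Map1lc3a and Map1lc3b, and 5 genes that load, trim or use ATG8 proteins (Sqstm1, Atg3, Atg7, Atg4b and Ulk1), 10 of the 43629 mouse genes in the count table. They were measured in M1, a mouse neuroblastoma cell line, by sequencing of poly-A RNA in 6 libraries. In 3 libraries a hairpin labelled shIGF2BP1 (genotype label IGF2BP1 knockdown) was switched on, and in 3 a non-targeting hairpin labelled shNT (genotype label WT). Both groups had 6 days of doxycycline at 4 to 6 µg/ml, the agent that induces the hairpin. The labels name 1 hairpin against Igf2bp1 and name no clone. They also leave unsaid whether replicates came from separate cultures. Each p-value thus reflects the variation among these 6 libraries, which may be technical, and the hairpin's effect and any other difference between both sets of cells cannot be told apart. Gabarap was chosen by its log2 fold change and adjusted p in this same comparison, as 1 of the 3 genes called (0.0223% of those tested), and its difference is therefore given as a description. The other 9 were taken by name, as relatives or partners, to ask whether the paralogs were higher by what Gabarap was lower.

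ATG8 proteins are small ubiquitin-like proteins that are joined to a lipid on the growing autophagosome, the membrane that encloses cytoplasm for digestion in the lysosome. The ATG4 proteases trim the tail of the precursor to expose a glycine, ATG7 activates that glycine as an E1-like enzyme, and ATG3 passes it to the lipid as an E2-like enzyme. The family has a GABARAP branch and an LC3 branch, which share this chemistry and bind overlapping sets of cargo receptors such as SQSTM1 (p62), while the kinase ULK1 starts the process. The ends of the 5 coding sequences are shown because they carry that glycine. Each line gives the last 60 coding bases with the stop codon, 5′ to 3′, from the GENCODE transcripts on GRCm38, and the capitals mark the last codon of the form GGN, the glycine codon.
Gabarap: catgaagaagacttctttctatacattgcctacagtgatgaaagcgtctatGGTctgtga
Gabarapl1: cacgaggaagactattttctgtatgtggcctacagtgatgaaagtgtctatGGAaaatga
Gabarapl2: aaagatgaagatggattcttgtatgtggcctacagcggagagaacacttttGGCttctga
Map1lc3a: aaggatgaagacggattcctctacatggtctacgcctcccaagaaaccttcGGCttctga
Map1lc3b: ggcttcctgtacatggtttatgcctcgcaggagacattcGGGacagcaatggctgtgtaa

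In the first 4 sequences 6 bases follow the glycine codon, stop codon included, and in Map1lc3b 18 bases follow it. These ends lie at chr11:69994465-69994524 for Gabarap, chr6:129541108-129541167 for Gabarapl1, chr8:111952346-111952405 for Gabarapl2, chr2:155277578-155277637 for Map1lc3a and chr8:121596711-121596770 for Map1lc3b, all on the plus strand. Over the whole coding sequence Gabarap was most like Gabarapl1, with 74.9% identical bases, and it had 64.6% with Gabarapl2, 57.3% with Map1lc3a and 56.3% with Map1lc3b. The longest run that Gabarap shared with a paralog in these alignments was 17 bases, against a read length of 53. Of the 1888 windows of 53 bases in Gabarap transcripts, 0 occurred in a transcript of another gene. Gabarapl2 had 11.9% of its windows in 4 processed pseudogenes, Gabarapl1 had 22.8% in an antisense transcript with 2 counts over all libraries, and Map1lc3a had 0%. Map1lc3b had 5.66% of its windows in transcripts of 244 other genes. Counts of Gabarapl2 and Map1lc3b are uncertain to that extent. The 3' end of Map1lc3b overlaps Zcchc14, Sqstm1 overlaps Mrnip and Atg4b overlaps Thap4, each on the opposite strand, and although the library kit keeps the strand, per the labels' protocols, the setting used in counting is not given in the sources used here. Map1lc3b also overlaps Gm20388 on the same strand, with 0 counts over all libraries, and Gabarapl1 overlaps its antisense transcript. Reads of all these pairs may not be told apart, and the values of Gabarapl1, Map1lc3b, Sqstm1 and Atg4b are uncertain to that extent.

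The libraries held 25119655 to 35373076 counts, and the test covered 13445 genes, all 10 autophagy genes among them. By chi-square per gene, each library labelled shIGF2BP1 was nearest to another of that label. Each library labelled shNT was instead nearest to one labelled shIGF2BP1. The chi-square, which also rises with library depth, was 48.1 to 130 between libraries labelled shIGF2BP1. It was 165 to 256 between those labelled shNT and 84.7 to 229 across labels. Replicate 3 of shNT stood farthest from the rest, at 156 to 256. Igf2bp1 itself was not lower under its hairpin, with 67, 35 and 311 counts in the libraries labelled shIGF2BP1 and 37, 175 and 201 counts in those labelled shNT (log2 fold change 0.25 ± 0.79 SE, edgeR adjusted p = 0.966). Leaving out shNT replicate 1 gave -0.18, and leaving out shIGF2BP1 replicate 3 gave -1.24. All directions below therefore compare labels, and not a measured loss of Igf2bp1. Among sympathetic neuroblastoma markers, Hand2, Gata3, Isl1, Ddc and Mycn could be tested, while Th and Dbh had 0 counts in all 6 libraries, which allows 0.0851 to 0.114 CPM in a library. The 7 leukocyte markers summed to 4.16 to 6.18 CPM in the libraries labelled shIGF2BP1 and 7.82 to 15 CPM in those labelled shNT, with 2 of the 7 testable and Adgre1 and Cd3e at 0. That sum was almost all Cd68, with 1542 counts over the 6 libraries (log2 fold change -1.52 ± 0.36 SE, edgeR adjusted p = 0.403, called by DESeq2 and by edgeR without a filter). Fcer1g, with 47 counts, had a log2 fold change of 2.57, Csf1r had 31 counts, Itgam 3 and Ptprc 1. The 7 fibroblast markers summed to 256 to 563 CPM (shIGF2BP1) and 317 to 428 CPM (shNT), with 5 testable and Lum at 0. Col1a1 made most of it, with 58496 counts over the 6 libraries (log2 fold change 0.01), while Col1a2 had 22. Postn (129 counts, 3.48), Acta2 (1.56) and Dcn (0.09) were positive, and Pdgfra was negative (-0.69). The 5 endothelial markers summed to 31.1 to 73.7 CPM (shIGF2BP1) and 37.1 to 53.8 CPM (shNT), with 2 testable and Emcn at 0. Pecam1 made most of it, with 8077 counts (log2 fold change 0.48), Kdr had 712 (-1.95), Tek 15 and Cdh5 2. By edgeR 0 of all these markers were called, and without a filter Ddc, Cd68, Postn and Kdr were. Ddc had 109 counts over the 6 libraries (log2 fold change 2.89). Of the 5 sympathetic markers tested, 3 were positive and 2 negative. The part of these cell types in the results was not tested. In bulk RNA fewer cells of a type cannot be told apart from less RNA per cell.

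Gabarap, the founding member of its branch and a protein also known for trafficking of GABA-A receptors, was the member that differed most. CPM below are counts scaled to an equal library size, with TMM factors. Gabarap had 43.3, 54.3 and 50.8 CPM in libraries 1 to 3 labelled shIGF2BP1, against 174, 138 and 134 CPM in libraries 1 to 3 labelled shNT. The groups did not overlap, and the highest library labelled shIGF2BP1 lay well under the lowest labelled shNT. The means were 49.5 ± 5.61 CPM (shIGF2BP1) and 149 ± 21.9 CPM (shNT) (SD, n = 3 each), so that the libraries labelled shIGF2BP1 held 33.2% of the shNT level. On the log2 scale the difference was -1.59 ± 0.20 (SE; 95% interval -2.03 to -1.15). Of the 13445 tested genes, 71 (0.528%) had a log2 fold change at or below that of Gabarap, and 4 of these, Gabarap included, had a mean over all libraries of 49.5 CPM or more. These values chose the gene and are not tested here. The call that singled it out was lost without shNT replicate 1, without shNT replicate 2 and without any 1 library labelled shIGF2BP1, at edgeR adjusted p values of 0.0994 to 0.352. The log2 fold change without each library was -1.66 to -1.46, and without shNT replicate 3 it was -1.66 with the call kept.

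No paralog passed the test in either direction, and all 4 had a negative fitted log2 fold change, although those of Gabarapl2 and Map1lc3b turned positive with library size only in place of TMM. Gabarapl1, the closest relative, had 129, 159 and 155 CPM in the libraries labelled shIGF2BP1 and 137, 196 and 140 CPM in those labelled shNT. The groups overlapped, with the highest value in shNT replicate 2. Its log2 fold change was -0.10 ± 0.21 (SE; edgeR adjusted p = 0.954), and the 95% interval of the fold ran from 0.677 to 1.29. Without shNT replicate 2 the log2 fold change was 0.09. Gabarapl2 (also known as GATE-16, a Golgi transport factor) had 28.2, 23.2 and 27.4 CPM in the libraries labelled shIGF2BP1 and 29.99, 21.1 and 30.9 CPM in those labelled shNT. Its groups lay within the same range, and the log2 fold change was -0.06 ± 0.23 (edgeR adjusted p = 0.9753; fold interval 0.675 to 1.37). Its sign also turned without shNT replicate 1, shNT replicate 3 or shIGF2BP1 replicate 2, to at most 0.04.

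The LC3 branch comprises Map1lc3a and Map1lc3b, of which LC3B is the usual marker protein of autophagosomes. Map1lc3a had 59.8, 69.9 and 67.5 CPM in the libraries labelled shIGF2BP1 and 141, 78.0 and 81.4 CPM in those labelled shNT. The groups did not overlap, but a single library, shNT replicate 1, stood far above the other 5. Its log2 fold change was -0.61 ± 0.25, which did not pass the test (edgeR adjusted p = 0.684), and it was -0.28 without shNT replicate 1. Map1lc3b had 80.8, 82.9 and 55.5 CPM in the libraries labelled shIGF2BP1 and 104, 67.9 and 53.1 CPM in those labelled shNT. The groups overlapped, and the log2 fold change was -0.04 ± 0.27 (edgeR adjusted p = 0.988; fold interval 0.646 to 1.47). Without shNT replicate 1, again the highest library, it was 0.27, and without shIGF2BP1 replicate 3 it was 0.12.

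**Figure D1:**
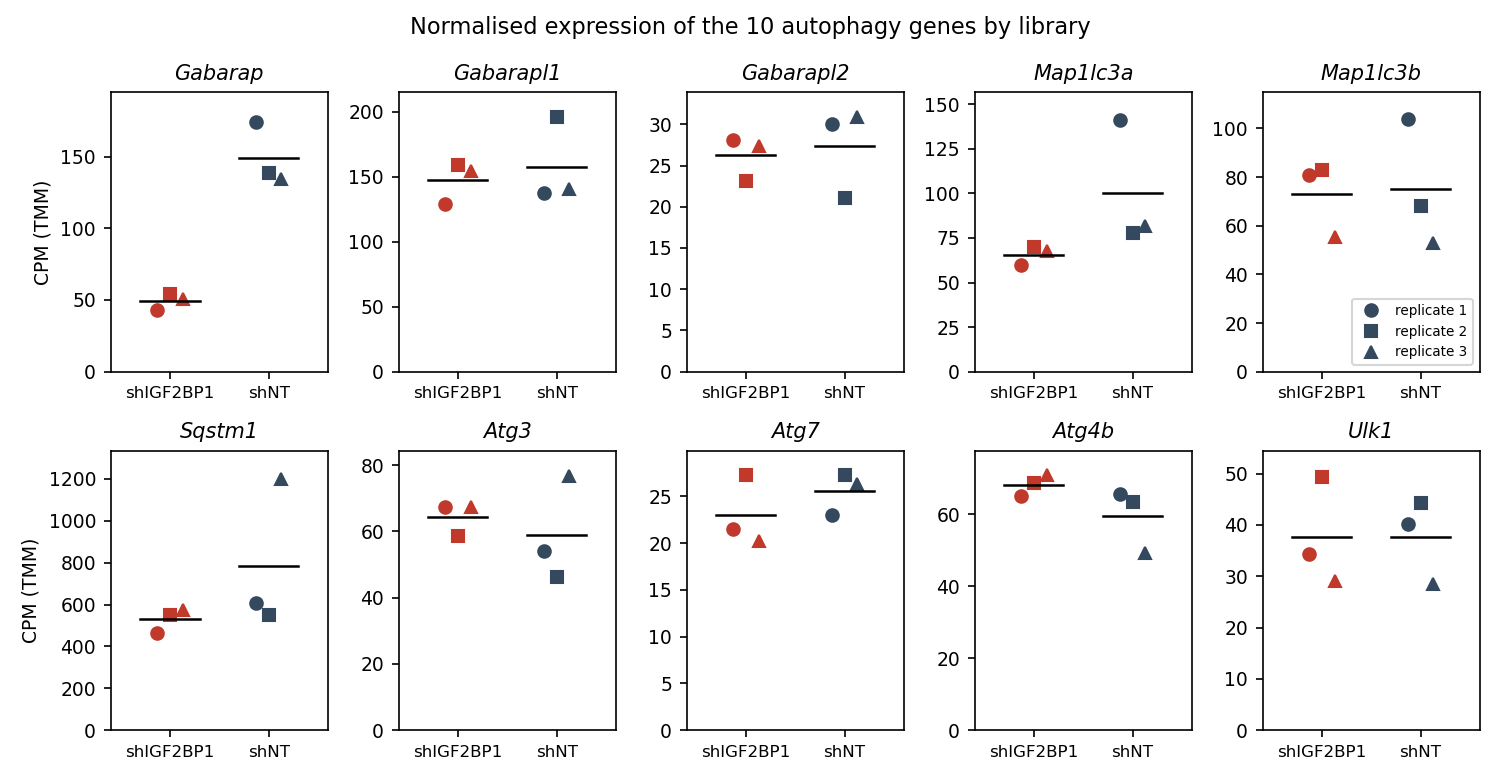
CPM of each of the 10 genes in each library, with libraries labelled shIGF2BP1 left and shNT right in each panel, the marker shape giving the replicate number and the bar the mean of 3. Gabarap separates the groups by a wide gap (43.3 to 54.3 against 134 to 174 CPM), Map1lc3a by a narrow one (59.8 to 69.9 against 78.0 to 141 CPM), and the other 8 overlap.

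To set the 5 ATG8 mRNAs on one scale, CPM were divided by the exon length of each gene in kilobases. In the libraries labelled shIGF2BP1 the order was Gabarapl1 at 73.4 ± 8.03, Map1lc3a at 55.7 ± 4.49, Gabarap at 26.8 ± 3.04, Gabarapl2 at 11.3 ± 1.16 and Map1lc3b at 9.72 ± 2.04 CPM per kilobase (SD, n = 3). In those labelled shNT it was Map1lc3a at 84.9 ± 30.1, Gabarap at 80.7 ± 11.9, Gabarapl1 at 78.4 ± 16.4, Gabarapl2 at 11.8 ± 2.34 and Map1lc3b at 9.97 ± 3.47 CPM per kilobase. Gabarap thus ranked among a leading trio under shNT whose levels lay within their spread, and stood below the other 2 of that trio, beyond the spread, under shIGF2BP1. The last pair did not differ beyond its spread in either group. Its order turned when the longest annotated transcript was used as the length. Map1lc3b was then at 17.7 and 18.1, and Gabarapl2 at 15.7 and 16.3, CPM per kilobase in libraries labelled shIGF2BP1 and shNT. The order of the trio under shNT also turned with the length. By the longest transcript it was Gabarap at 110, Map1lc3a at 90.1 and Gabarapl1 at 86.7 CPM per kilobase. By the mean transcript length it was Gabarap at 171 ± 25.2, Gabarapl1 at 167 ± 34.95 and Map1lc3a at 109.5 ± 38.8 CPM per kilobase.

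Summed over the 5 genes, the ATG8 level was 161, 189 and 181 CPM per kilobase in the libraries labelled shIGF2BP1 and 309, 257 and 232 CPM per kilobase in those labelled shNT. All 3 sums under the Igf2bp1 hairpin lay below all 3 under shNT. The means were 177 ± 14.2 (shIGF2BP1) and 266 ± 39.4 CPM per kilobase (shNT; SD, n = 3 each), so the libraries labelled shIGF2BP1 held 66.6% of the shNT sum. No test is given, since the sum is built on the gene that was chosen for its difference.

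The 4 paralogs without Gabarap summed to 138, 159 and 153 CPM per kilobase in the libraries labelled shIGF2BP1 and to 214, 182 and 159 CPM per kilobase in those labelled shNT. The ranges met at their edge, and no library labelled shIGF2BP1 exceeded the shNT mean of 185 ± 27.9 CPM per kilobase. Gabarap was lower by 53.9 CPM per kilobase, and to make that up the paralog sum would have had to be 29.1% above its shNT mean. It was instead at 81.1% of it, a difference of -35.0 CPM per kilobase, of which Map1lc3a made -29.2 and Gabarapl1 -5.06. Without shNT replicate 1, the library with the high Map1lc3a, the paralog difference was -20.2 CPM per kilobase, 88.1% of the shNT mean. The paralog sum stayed below its shNT mean with each of the 5 other scalings or gene lengths and without each library in turn, at 75.8% to 88.1%.

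Gabarap made 14.6%, 15.6% and 15.2% of the ATG8 sum in the libraries labelled shIGF2BP1 and 30.6%, 29.3% and 31.4% in those labelled shNT. Replicates differed little in this share, with means of 15.1% ± 0.52 (shIGF2BP1) and 30.4% ± 1.07 (shNT; SD, n = 3 each), although the CPM of single genes varied more. A ratio within a library does not depend on its depth or scaling. Per kilobase, Gabarap stood to Gabarapl1 at 0.366, 0.373 and 0.358 in the libraries labelled shIGF2BP1 and at 1.39, 0.771 and 1.04 in those labelled shNT. Its ratio to Gabarapl2 averaged 2.41 ± 0.51 (shIGF2BP1) and 7.03 ± 1.43 (shNT), to Map1lc3a 0.481 ± 0.017 (shIGF2BP1) and 0.993 ± 0.181 (shNT), and to Map1lc3b 2.86 ± 0.79 (shIGF2BP1) and 8.48 ± 1.74 (shNT). All 4 ratios separated the groups. Since Gabarap was chosen for its difference, that separation is a description.

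**Figure D2:**
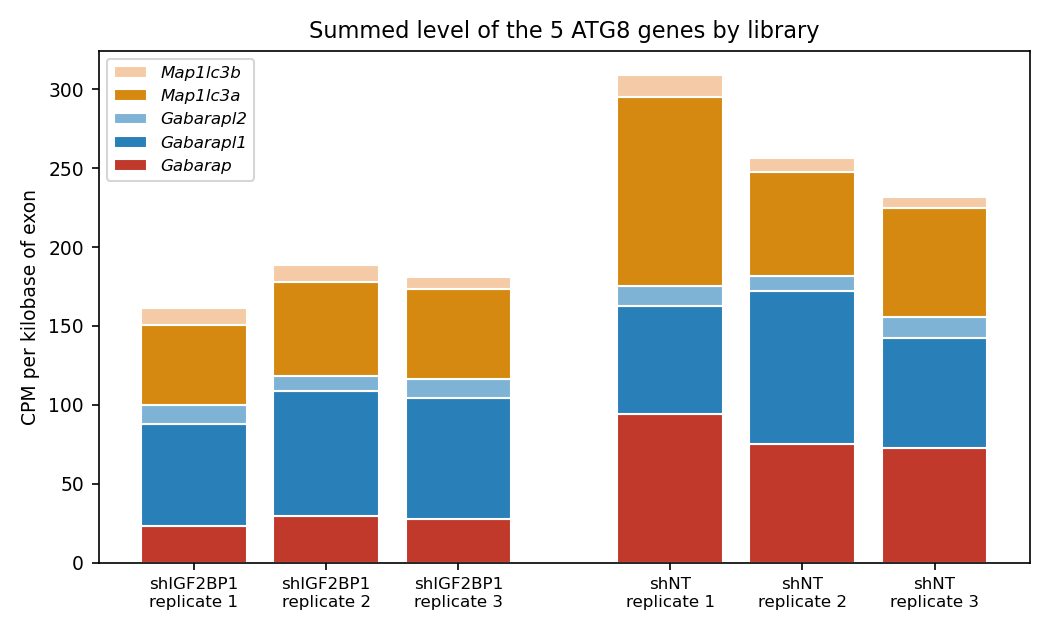
Stacked bars of CPM per kilobase of exon for the 5 ATG8 genes in each library, with the 3 libraries labelled shIGF2BP1 left of the 3 labelled shNT. The Gabarap segment is 23.5 to 29.5 CPM per kilobase under shIGF2BP1, against 72.7 to 94.4 CPM per kilobase under shNT, and no other segment is larger by a matching amount.

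No enzyme of ATG8 conjugation passed the test. Atg3, the E2-like enzyme, had 67.3, 58.7 and 67.4 CPM in the libraries labelled shIGF2BP1 and 54.0, 46.2 and 76.7 CPM in those labelled shNT. The shNT libraries spanned the others, and the log2 fold change was 0.13 ± 0.23 (SE; edgeR adjusted p = 0.940) and -0.02 without shNT replicate 2. Atg7, the E1-like enzyme, had 21.5, 27.3 and 20.2 CPM in the libraries labelled shIGF2BP1 and 23.1, 27.3 and 26.3 CPM in those labelled shNT. The ranges overlapped, and the fitted difference was -0.15 ± 0.22 on the log2 scale (edgeR adjusted p = 0.929), or -0.28 to -0.07 without each library. Atg4b, the main ATG8 protease, had 65.1, 68.7 and 70.9 CPM in the libraries labelled shIGF2BP1 and 65.6, 63.4 and 49.3 CPM in those labelled shNT. Its groups overlapped at their edge, and the fitted log2 difference was 0.20 ± 0.19 (edgeR adjusted p = 0.888) and 0.08 without shNT replicate 3. The intervals of the fold were 0.775 to 1.54 for Atg3, 0.639 to 1.27 for Atg7 and 0.853 to 1.55 for Atg4b, and the data do not exclude differences within these limits.

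Sqstm1, which links ubiquitin-tagged cargo to ATG8 proteins, had 464, 551 and 573 CPM in the libraries labelled shIGF2BP1 and 608, 551 and 1200 CPM in those labelled shNT. The group difference came mainly from shNT replicate 3. The log2 fold change was -0.57 ± 0.32 (SE; edgeR adjusted p = 0.772) and -0.13 without that library. Ulk1, the initiating kinase, had 34.3, 49.4 and 29.0 CPM in the libraries labelled shIGF2BP1 and 40.2, 44.2 and 28.5 CPM in those labelled shNT. Its means differed little beside their spread, at 37.6 ± 10.6 CPM (shIGF2BP1) and 37.7 ± 8.19 CPM (shNT) (SD, n = 3 each; edgeR adjusted p = 0.999; fold interval 0.670 to 1.49). Its log2 fold change lay between -0.24 and 0.15 without each library.

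**Figure D3:**
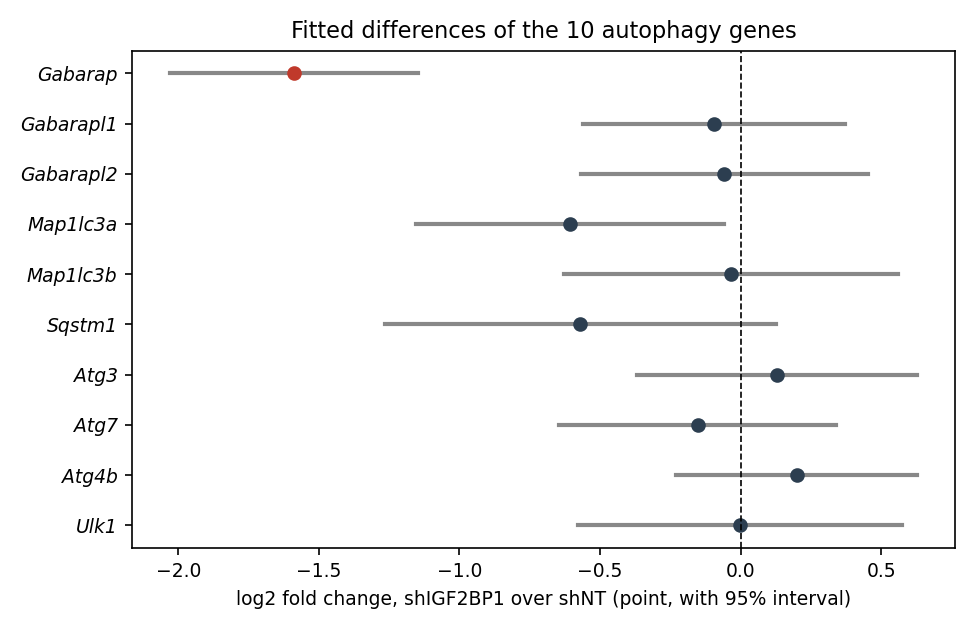
Fitted log2 fold change of the libraries labelled shIGF2BP1 over those labelled shNT for the 10 genes, with 95% intervals from the edgeR fit; the dashed line marks no difference. Gabarap lies at -1.59, and the intervals of 8 of the other 9 cross 0, Map1lc3a being the exception at -0.61 (-1.16 to -0.06).

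In all, 0 of the 9 other members passed an edgeR adjusted p of 0.05, where 0.0223% of all tested genes did. DESeq2 and limma-voom also called 0 of the 9. At an unadjusted p under 0.05 there was 1, Map1lc3a, where the share over all tested genes was 7.16%. Map1lc3a was likewise the 1 member of 9 whose groups did not overlap, where 11.6% of all tested genes did not. Of the 9, 7 had a negative log2 fold change and 2 a positive one, where 51.5% of all tested genes were negative. The median was -0.06 beside -0.01 over all tested genes. With library size only in place of TMM, Gabarapl2, Map1lc3b and Ulk1 turned positive.

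The wider pathway was read in 8 lists of 82 genes, of which 78 could be tested. By edgeR 0 were called at an adjusted p of 0.05. DESeq2 called 1, Trp53inp2, and limma-voom 0. For 19 of the 24 genes named from these lists, leaving out 1 library moved the log2 fold change by over 1.5 times, the exceptions being Atg9a, Stbd1, Trp53inp2, Rab7 and Foxo3. At an unadjusted p under 0.05 there were 5, 4 lower and 1 higher, where 3.99% and 3.17% of all tested genes were. Negative log2 fold changes were seen in 47 and positive ones in 31, with a median of -0.03, and with library size only the split was 35 to 43, beside 51.5% and 41.9% negative over all tested genes. Groups did not overlap in 5 lower and 4 higher genes, where 5.59% and 6.06% of all tested genes did so.

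Partners of the ULK1 kinase (4 tested) had a median log2 fold change of 0.06, which was at or just below 0 without shNT replicate 3 or shIGF2BP1 replicate 1. Atg101, a scaffold subunit, had 27.7, 26.2 and 25.4 CPM in the libraries labelled shIGF2BP1 and 24.2, 19.9 and 14.7 CPM in those labelled shNT, which did not overlap (log2 fold change 0.43 ± 0.24, edgeR adjusted p = 0.776). The related kinase Ulk2 averaged 47.2 ± 5.91 CPM (shIGF2BP1) and 43.6 ± 8.94 CPM (shNT), and the scaffold Atg13 averaged 43.4 ± 2.70 CPM (shIGF2BP1) and 43.9 ± 6.04 CPM (shNT) (SD, n = 3 each). The class III PI3-kinase complex, which makes the lipid that marks the nascent membrane, had 8 tested members and a median of -0.01, or 0.07 with library size only. Those named by their p were the inhibitor Rubcn at 58.5 ± 8.87 CPM (shIGF2BP1) and 73.2 ± 23.2 CPM (shNT), the activator Ambra1 at 75.1 ± 8.63 CPM (shIGF2BP1) and 65.2 ± 13.7 CPM (shNT), and the subunit Uvrag at 60.9 ± 12.02 CPM (shIGF2BP1) and 72.0 ± 26.8 CPM (shNT), with edgeR adjusted p values of 0.856 to 0.908.

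The proteins that bring lipid to the membrane (ATG9, ATG2 and WIPI, 8 tested) had a median of -0.10. Atg9a, a scramblase carried on vesicles, had 20.6, 24.2 and 17.9 CPM in the libraries labelled shIGF2BP1 and 21.4, 39.1 and 38.6 CPM in those labelled shNT. The groups overlapped through shNT replicate 1, and the log2 fold change was -0.66 ± 0.27 (edgeR adjusted p = 0.685). Wdr45b averaged 109 ± 14.6 CPM (shIGF2BP1) and 142 ± 29.0 CPM (shNT), and Wipi1, another reader of that lipid, 54.1 ± 5.55 CPM (shIGF2BP1) and 65.7 ± 9.06 CPM (shNT). The other conjugation enzymes and ATG4 proteases (8 tested) had a median of -0.09. Atg12, the ubiquitin-like partner of Atg5, averaged 67.1 ± 8.25 CPM (shIGF2BP1) and 87.1 ± 31.3 CPM (shNT), Atg5 29.1 ± 6.02 CPM (shIGF2BP1) and 36.02 ± 8.05 CPM (shNT), and Atg16l2 30.3 ± 11.7 CPM (shIGF2BP1) and 23.4 ± 1.27 CPM (shNT). The log2 fold change of Atg16l2 was 0.37, and 0.03 without shIGF2BP1 replicate 2, while that of Atg12 was -0.38, and -0.06 without shNT replicate 3.

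Cargo receptors other than Sqstm1 (17 of 18 tested, Optn at 0 counts) had a median of -0.05, or 0.03 with library size only and 0.05 without shNT replicate 1. Stbd1, which ties glycogen to the GABARAP branch, had 23.0, 31.0 and 46.3 CPM in the libraries labelled shIGF2BP1 and 62.1, 56.0 and 110 CPM in those labelled shNT. The groups did not overlap, and the log2 fold change of -1.18 ± 0.32 did not pass the test (edgeR adjusted p = 0.478). It was called when no filter on low counts was applied (edgeR adjusted p = 0.00245). The mitophagy receptor Bnip3 averaged 36.3 ± 5.52 CPM (shIGF2BP1) and 53.9 ± 22.4 CPM (shNT), and Calcoco1 84.5 ± 28.4 CPM (shIGF2BP1) and 55.6 ± 27.8 CPM (shNT) (SD, n = 3 each).

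Adaptors that bind ATG8 proteins (15 of 16 tested) had a median of -0.16, or 0.11 without shNT replicate 2. Trp53inp2, known as DOR, an ATG8-binding protein that moves between nucleus and autophagosome, had 30.9, 38.8 and 26.1 CPM in the libraries labelled shIGF2BP1 and 85.7, 55.8 and 58.3 CPM in those labelled shNT. The groups did not overlap. The log2 fold change was -1.06 ± 0.24 (edgeR adjusted p = 0.395), and it was called by DESeq2 (adjusted p = 0.0256) and by edgeR without a filter (adjusted p = 0.00884). Fnip2, a partner of folliculin, averaged 66.3 ± 17.5 CPM (shIGF2BP1) and 96.8 ± 40.0 CPM (shNT), and the synaptic scaffold Gphn 60.03 ± 6.25 CPM (shIGF2BP1) and 74.7 ± 19.9 CPM (shNT).

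Genes of fusion with the lysosome (12 of 13 tested, Vamp8 at 0 counts) had a median of 0.07, with 6 negative and 6 positive. Vps11, a core subunit of the HOPS tether, had 78.1, 90.1 and 72.5 CPM in the libraries labelled shIGF2BP1 and 51.1, 64.4 and 31.1 CPM in those labelled shNT, with no overlap (log2 fold change 0.72 ± 0.26, edgeR adjusted p = 0.635; 0.47 without shNT replicate 3, its lowest library). Vps16, another core subunit, averaged 126 ± 3.68 CPM (shIGF2BP1) and 99.5 ± 19.7 CPM (shNT), and the small GTPase Rab7 averaged 169 ± 18.4 CPM (shIGF2BP1) and 213 ± 20.6 CPM (shNT) (SD, n = 3 each). Transcription factors of autophagy genes (6 of 7 tested, Tfec at 0 counts) had the lowest median of the 8 lists, -0.37. Foxo3 averaged 56.0 ± 6.52 CPM (shIGF2BP1) and 81.5 ± 19.3 CPM (shNT) (edgeR adjusted p = 0.686), Mitf 11.2 ± 2.06 CPM (shIGF2BP1) and 18 ± 6.90 CPM (shNT), and Tfe3, a relative of the lysosomal regulator TFEB, 83.2 ± 13.1 CPM (shIGF2BP1) and 111 ± 24.5 CPM (shNT).

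**Figure D4:**
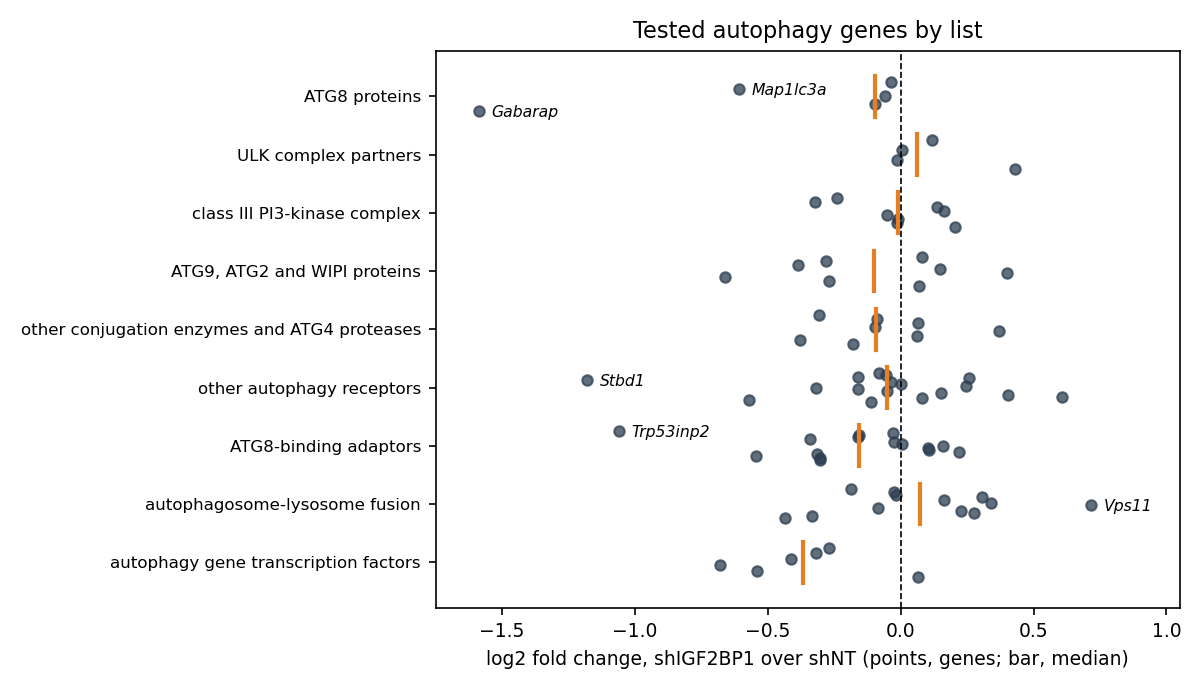
Log2 fold change of the libraries labelled shIGF2BP1 over those labelled shNT for each tested gene of the ATG8 family and the 8 pathway lists, 1 row a list, the vertical bar marking the median of the list. Most points lie near 0, Gabarap stands apart at -1.59, and Stbd1 (-1.18) and Trp53inp2 (-1.06) are the lowest of the other genes shown.

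Gabarap lies on the plus strand of chromosome 11, at chr11:69991143-69994951 in GRCm38, in a dense cluster of genes. Within 100 kb of it, 11 other genes could be tested, and 0 passed an edgeR adjusted p of 0.05 or an unadjusted p of 0.05. DESeq2 and limma-voom called 0 of them. Over all tested genes these shares were 0.0223% and 7.16%, so a count of 0 in so few genes says little. Their log2 fold changes ran from -0.75 to 0.05, 9 negative and 2 positive, with a median of -0.16 beside -0.01 over all tested genes. The negative share over all tested genes was 51.5%, and 41.9% with library size only. Groups did not overlap in 2 neighbours, both lower, where 5.59% of all tested genes were lower without overlap. Ctdnep1, a phosphatase of the nuclear envelope, ends 542 bases before Gabarap on the same strand. It had 113, 123 and 116 CPM in the libraries labelled shIGF2BP1 and 127, 106 and 112 CPM in those labelled shNT. The groups overlapped closely, and the fitted log2 difference was 0.03 ± 0.18 (edgeR adjusted p = 0.983).

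Phf23, a PHD-finger protein, starts 826 bases after Gabarap. It had 84.7, 75.8 and 68.8 CPM in the libraries labelled shIGF2BP1 and 91.7, 70.4 and 125 CPM in those labelled shNT (log2 fold change -0.33 ± 0.23, edgeR adjusted p = 0.831; -0.09 without shNT replicate 3, its highest library). Farther out, the tRNA-modification factor Elp5 averaged 61.4 ± 2.32 CPM (shIGF2BP1) and 65.0 ± 14.1 CPM (shNT), the translation factor Eif5a 1134 ± 340 CPM (shIGF2BP1) and 1093 ± 114 CPM (shNT), and the Wnt-signalling protein Dvl2 87.2 ± 7.61 CPM (shIGF2BP1) and 87.8 ± 25.3 CPM (shNT) (SD, n = 3 each). Acadvl, an enzyme of fatty acid oxidation, averaged 73.0 ± 6.02 CPM (shIGF2BP1) and 96.7 ± 11.2 CPM (shNT) without overlap (log2 fold change -0.41 ± 0.19, edgeR adjusted p = 0.705). None of the 11 neighbours was as low as Gabarap, but only 0.528% of all tested genes were, so this too says little.

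**Figure D5:**
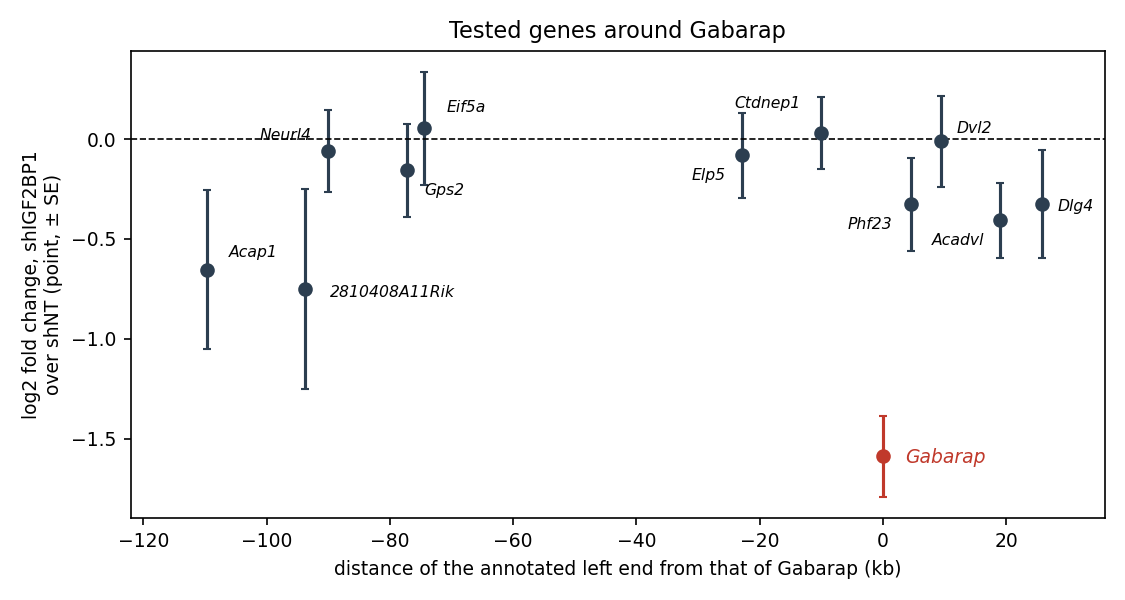
Log2 fold change (± SE) of the 11 tested genes within 100 kb of Gabarap, and of Gabarap in red, by the distance in kb of their annotated left ends. Both adjoining genes, Ctdnep1 at 0.03 and Phf23 at -0.33, lie far above Gabarap at -1.59. Gabarap was chosen for its low value, so this gap is a description.

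Among the 10479 other tested genes with a mean of 5 CPM or more, those whose profile over the 6 libraries was most like that of Gabarap were Nsa2, Ugp2, Sfr1, Lman2 and Apobr. Likeness was measured as the root mean square difference of log2 CPM after centring each gene on its mean, and it was 0.184 for Nsa2, 0.267 for Ugp2, 0.270 for Sfr1, 0.283 for Lman2 and 0.300 for Apobr. Nsa2, a ribosome assembly factor, averaged 73.4 ± 15.99 CPM in the libraries labelled shIGF2BP1 and 201 ± 53.5 CPM in those labelled shNT. Ugp2, which makes UDP-glucose, averaged 35.4 ± 3.50 CPM (shIGF2BP1) and 84.2 ± 4.16 CPM (shNT), and Sfr1, a recombination repair factor, 84.1 ± 12.9 CPM (shIGF2BP1) and 227 ± 38.0 CPM (shNT). Lman2, a cargo lectin of the secretory pathway, averaged 103 ± 19.3 CPM (shIGF2BP1) and 222 ± 25.8 CPM (shNT), and Apobr, a lipoprotein receptor, 7.54 ± 1.03 CPM (shIGF2BP1) and 17.6 ± 4.69 CPM (shNT) (SD, n = 3 each). None is an ATG8 gene. By edgeR 0 of these 5 were called, while DESeq2 and edgeR without a filter called all 5, and the replicate block called Nsa2, Ugp2 and Sfr1; they were picked for their likeness, and those calls are a description. Of the ATG8 genes Map1lc3a came nearest, at 0.539 and rank 137, while Gabarapl1 stood at 0.790, Gabarapl2 at 0.811 and Map1lc3b at 0.839.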

How the data were processed

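Poly-A RNA of 6 M1 libraries was read in paired runs of 53 cycles, per the labels' protocols. HISAT2 2.1.0, HTSeq, bcl2fastq and the build GRCm38 are listed in the submitters' processing notes; annotation release and strand setting: not given in the sources used here. Values as deposited by the authors are unnormalised read counts, with 25119655 to 35373076 per library. Its 92 spike-in rows hold 0 counts and were left out. GENCODE M21 named 42548 of 43629 IDs; the rest held 0.111% of counts.

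Counts were tested with edgeR 4.0.16 in R 4.3.3 (TMM, filterByExpr at its default minimum count (10) and total (15), robust quasi-likelihood F test, two-sided), with Benjamini-Hochberg adjustment over 13445 genes and a threshold of 0.05. Alternatives were DESeq2 1.42.0, limma-voom (limma 3.58.1), no filter, library size only, RLE factors, a mean of 5 CPM as filter, a replicate block, an adjusted p of 0.01 and leaving out each library. CPM per kilobase used the union of annotated exons; transcript lengths were alternatives. On simulated data for this comparison over 13283 genes, edgeR recovered 25% of genes changed 2-fold, 81.1% changed 4-fold and 98.4% changed 16-fold, with 5 false calls of 130, against 31 false among the 173 calls by DESeq2. No 2 libraries agreed within sampling noise, at a chi-square per gene of 48.1 to 256. Upper limits for 0 counts use 3 counts per library and cover counting error only.

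The members, lists, alternatives and naming rule were chosen with earlier results of these data known. Named genes are the members, Igf2bp1, up to 3 genes with the smallest p in each list, the 3 nearest tested genes on each side of Gabarap, and the 5 genes most like it. No set test was run. One marker gene is not reported here.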

Additional observations from a re-analysis of the deposited data

How the results depend on the processing

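The count of 3 called genes was 138 without a filter, 82 with DESeq2, 18 with the replicate block, 1 with limma-voom, 1 with a mean of 5 CPM as filter, 1 at the stricter adjusted p of 0.01, and 1 to 5 without each library. Gabarap kept its direction in 13 of 13 alternatives (-1.66 to -1.46), and its call was lost in 7 of them at adjusted p values of 0.0632 to 0.352. It was also not called at the stricter threshold. The replicate block (log2 fold change -1.58 for Gabarap) called 0 of the other 9 members. Deviations from the group means correlated at 0.19, -0.09 and 0.28 between libraries of the same number and at -0.37 to 0.22 otherwise, so the numbers are not shown to pair the samples. Trp53inp2 was the 1 adaptor called with DESeq2 and the 1 called without a filter, and Stbd1 the 1 receptor called without a filter. Nsa2, Ugp2, Sfr1, Lman2 and Apobr gained calls with both, and the first 3 with the replicate block. The summed ATG8 level moved by less than 1 SD in 11 of 11 alternatives, with or without Gabarap.

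Some log2 fold changes smaller than their SE, that of Igf2bp1 (0.25 ± 0.79) among them, turned sign with no call. With library size only they were 0.019 for Gabarapl2, 0.051 for Map1lc3b, 0.083 for Ulk1, 0.066 for Atg13 and 0.066 for Dvl2. At mean CPM 5 they were 0.019 for Ulk1, 0.0050 for Atg13 and 0.014 for Dvl2, and without a filter 0.0018 for Ulk1. With limma-voom they were 0.0011 for Map1lc3b, -0.24 for Igf2bp1 and 0.023 for Dvl2, and with the replicate block -0.047 for Igf2bp1 and 0.025 for Dvl2. Without each library the ranges were -0.18 to 0.089 for Gabarapl1, -0.22 to 0.040 for Gabarapl2, -0.23 to 0.27 for Map1lc3b, -0.020 to 0.36 for Atg3, -0.24 to 0.15 for Ulk1, -1.24 to 0.76 for Igf2bp1, -0.046 to 0.22 for Ulk2, -0.098 to 0.098 for Atg13, -0.48 to 0.068 for Uvrag, -0.20 to 0.25 for Eif5a, -0.25 to 0.027 for Elp5, -0.022 to 0.11 for Ctdnep1 and -0.15 to 0.25 for Dvl2. The cause was not tested. The filter at mean CPM 5 removed Igf2bp1. With 3 libraries a group, the simulation recovered 25% of 2-fold changes across its genes, so a missing call alone does not exclude one. The fitted fold intervals of Gabarapl1 (0.677 to 1.29), Gabarapl2 (0.675 to 1.37) and Map1lc3b (0.646 to 1.47) held no 2-fold change. That of Map1lc3a (0.449 to 0.959) reached a 2-fold drop but held no rise.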
